A study of Homo sapiens with 9 samples.

Results

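The genes described here are named for proteins of the ribosome or for initiation and elongation factors of translation. They are the protein-coding genes of GENCODE release 44 whose symbols begin with RPL or RPS followed by a digit, A, P or X, the RPS6K kinases left out, or with EIF or EEF. Read-through genes were left out, and so was EIF3A, an initiation factor gene with 5 peaks. The rule gave 158 genes, 89 named for ribosomal proteins and 69 for factors. Being a rule on names, it took in 13 regulators of initiation and other EIF-named genes. It also took in 7 modifiers and partners of elongation factors, and 13 genes on no list of roles. Of the 2261 peaks of the RNA helicase DHX34 in the deposited list, 1910 overlapped a protein-coding gene by at least 1 nt, and 15 of these lay in 14 of the 158 genes.

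The peaks came from seCLIP (single-end enhanced crosslinking and immunoprecipitation), which joins proteins to bound RNA by UV light and sequences the RNA recovered with one of them. HEK293T cells, an established line from human embryonic kidney, were used throughout. The 5 IP libraries came from 1 CRISPR clone, A5, whose endogenous DHX34 was tagged with GFP and FLAG, with anti-GFP as the antibody. The 4 control libraries, labelled NEG GFP INPUT, were made from parental cells without the tag, and the cells of both groups were crosslinked. That label does not settle whether the controls passed through the anti-GFP IP, and the methods also call them inputs. IP and control libraries may therefore differ in more than the tag. A single clone cannot be told apart from the effect of its tag, and no library of another clone was used. The deposited list was taken to be the union of the peaks called in the IP libraries against the controls. Per the methods, the authors went on to study a smaller set, chosen for read support and for standing out from the flanking sequence. Most peaks of that set did not reach the required read support in more than 1 replicate. The list does not mark which peaks passed, and all of it was used here. Peaks that the authors set aside may therefore be among those described. Each line has a position and an integer between 1 and 4 of unstated meaning. It holds no strand, height, read count or value per library. The depth behind each peak is therefore unknown, no spread between replicates can be given, and every peak was read on the strand of its gene.

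Ribosomal protein genes are short, strongly transcribed genes, and many of them carry small nucleolar RNAs (snoRNAs) in their introns, which are released from the spliced introns and guide the chemical modification of ribosomal RNA. Initiation factors bring the small ribosomal subunit and the first tRNA to the start codon, and elongation factors deliver tRNAs and move the ribosome along the mRNA. An exon ends at a 5′ splice site, where the intron begins, and the next exon starts after a 3′ splice site. A peak that crosses such a boundary covers sequence that is joined only in unspliced RNA, and the study asked whether DHX34 binding spans exon–intron boundaries. Peak calling extended reads to a fixed length and used a cutoff for broad peaks. A crossing peak therefore need not hold a read that itself joins exon and intron.

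The sequences of the peaks that crossed a boundary, and of the peak that overlapped a snoRNA gene, are shown to make plain what lay under them. All are read from GRCh38. The whole EIF4G2 peak is given first, chr11:10805871-10806001 on the minus strand, with the bases of exon 4 in capitals and those of intron 4 in lower case. The 4 lines for EEF2 give 5′ splice sites under its 2 peaks on the minus strand of chromosome 19, with the last 20 exon bases in capitals and the first 30 intron bases in lower case. They lie at chr19:3982216-3982265, chr19:3981917-3981966, chr19:3981309-3981358 and chr19:3980484-3980533 for exons 5, 6, 7 and 9. Of the exon 5 bases, the last 11 lie inside the peak and those before them outside it. The EIF3B line, chr7:2379500-2379529 on the plus strand, gives the last 12 bases of exon 18 in capitals and 18 intron bases. The last line is the whole RPLP2 peak, chr11:811765-811864 on the plus strand, with the bases of the snoRNA gene SNORA52 in capitals.
EIF4G2 peak: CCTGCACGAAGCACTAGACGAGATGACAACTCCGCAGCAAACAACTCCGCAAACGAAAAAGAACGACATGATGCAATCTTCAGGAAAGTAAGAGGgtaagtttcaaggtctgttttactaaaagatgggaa
EEF2 exon 5: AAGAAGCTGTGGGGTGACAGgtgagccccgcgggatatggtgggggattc
EEF2 exon 6: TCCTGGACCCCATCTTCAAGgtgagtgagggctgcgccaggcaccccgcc
EEF2 exon 7: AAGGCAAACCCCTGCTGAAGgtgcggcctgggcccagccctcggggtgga
EEF2 exon 9: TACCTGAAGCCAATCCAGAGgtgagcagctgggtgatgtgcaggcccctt
EIF3B exon 18: TGGAGCACTGTGgtgagcgtctgcaggggg
RPLP2 peak: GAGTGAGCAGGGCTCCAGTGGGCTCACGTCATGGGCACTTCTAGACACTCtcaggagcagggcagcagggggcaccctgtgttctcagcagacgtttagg

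DHX34 peaks were found in 6 of 89 ribosomal protein genes and in 8 of 69 factor genes. The genes with a peak were RPL18, RPL32, RPL3L, RPL4, RPLP2 and RPS10 among the ribosomal proteins, and EEF1G, EEF2, EIF3B, EIF3E, EIF3H, EIF4EBP2, EIF4G2 and EIF4G3 among the factors. Each had 1 peak, except EEF2 with 2, and 144 genes had none. The genes counted include 3 on chromosome Y, and whether every gene could have given a peak was not assessed. By symbol, 5 of 53 RPL genes, 1 of 36 RPS genes, 6 of 55 EIF genes and 2 of 14 EEF genes held a peak. The share of genes with a peak was 6.74% for ribosomal proteins (95% Wilson interval 3.13 to 13.9%) and 11.6% for factors (5.99 to 21.2%). Over both it was 8.86% (5.35 to 14.3%), beside 8.5% of all 19383 protein-coding genes, so that the members' share stood near the background. The difference of ribosomal proteins from factors was -4.85 percentage points (95% Newcombe interval -15.2 to 4.27), which Fisher's exact test did not separate from 0 (two-sided p = 0.398, adjusted p = 0.533 over the 4 comparisons made between the classes). All intervals cover counting error over genes or peaks only. All 15 peaks had the value 1 in the fourth column, beside 2.3% of the peaks in protein-coding genes with a value of 2 or more.

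Ribosomal protein genes were shorter than factor genes. The median ribosomal protein gene spanned 5.55 kb (range 0.772 to 108.2 kb), the median factor gene 22.9 kb (1.92 to 371 kb) and the median protein-coding gene 26.9 kb. Among genes of up to 10 kb, 4 of 63 ribosomal protein genes had a peak (6.35%, 2.5 to 15.2%) and 1 of 15 factor genes (6.67%, 1.19 to 29.8%), beside 1.48% of all protein-coding genes of that length. Among genes over 10 to 50 kb, 2 of 22 ribosomal protein genes (9.09%) and 4 of 42 factor genes (9.52%) had a peak, beside 6.24%. Among longer genes the counts were 0 of 4, which allows a share of up to 49% by the Wilson interval, and 3 of 12 (25%), beside 16.7%. Within each of the first 2 ranges of annotated gene length the classes thus had nearly equal shares, from few genes with a peak. An annotated gene can be longer than its chosen transcript (MANE Select, otherwise Ensembl canonical). That transcript covers 74.2 to 100% of the RPL4 gene and 69.4 to 86.3% of the EIF3E gene. Shares by transcript length were not computed. In the shortest range the interval of ribosomal proteins lay above the background share, whereas that of factors, from 1 gene with a peak, included it. Per megabase of annotated gene there were 5.4 peaks in ribosomal protein genes, 3.11 in factor genes and 1.44 in all protein-coding genes. These per-length values are descriptions without a test, and the abundance of each transcript, which also bears on what is recovered, was not analysed here.

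**Figure D1:**
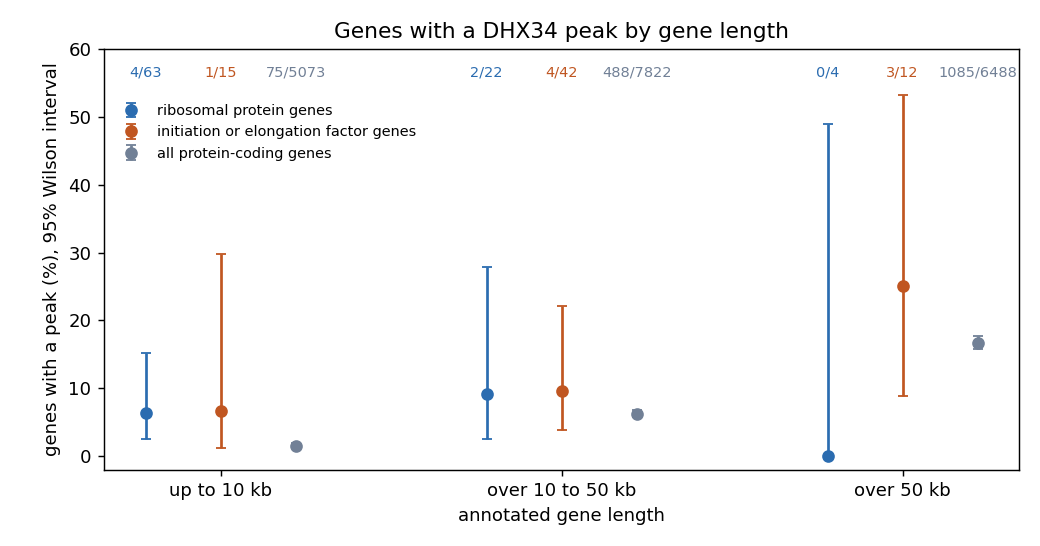
Share of genes with a DHX34 peak (%, vertical axis) by annotated gene length, for ribosomal protein genes (blue), initiation or elongation factor genes (orange) and all protein-coding genes (gray), with 95% Wilson intervals as bars and counts above. Both member classes lie at 6.35 and 6.67% in the shortest range, where all protein-coding genes lie at 1.48%.

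None of the 6 peaks in ribosomal protein genes crossed a boundary. In the chosen transcript (MANE Select, otherwise the Ensembl canonical transcript) 5 were intronic and 1 was exonic, beside 25.1% of all 1910 peaks that touched an exon of it, and with any transcript counted 3 of the 6 touched an exon. In the large-subunit protein gene RPL18 (ENSG00000063177.13, chr19:48615328-48619184, minus strand), the peak at 48618980 to 48619081 (102 nt) lay in intron 1, which is 1263 nt long, and began 59 nt after the 5′ splice site. Of the intronic member peaks it began nearest to a 5′ splice site, and it lay 97 nt from the start of the transcript. It had the highest GC content of the 15 peaks, 69.6%, and fell inside an exon of 2 of the 16 annotated transcripts, of which 1 is a retained intron.

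The gene of RPL4, another protein of the large subunit (ENSG00000174444.15, chr15:66498015-66524532, minus strand), held a peak of 124 nt at 66503765 to 66503888. It also lay in intron 1 (1258 nt), 899 nt after the 5′ splice site and 235 nt before the 3′ splice site. The peak of RPL32, likewise of the large subunit (ENSG00000144713.13, chr3:12834485-12841582, minus strand), covered 101 nt at 12837510 to 12837610 of intron 3 (3125 nt), 1738 nt past the 5′ splice site. A gene on the plus strand, ENSG00000289809, also overlapped that peak, and without strand the genes cannot be told apart. In RPS10, the only gene for a small-subunit protein with a peak (ENSG00000124614.17, chr6:34417454-34426069, minus strand), 116 nt at 34421115 to 34421230 lay in intron 4 (3305 nt), 499 nt after the 5′ splice site. The read-through gene RPS10-NUDT3, on the same strand, also contains that peak. These 3 peaks were intronic in every transcript that contains them.

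The remaining exonic peak belonged to RPL3L, the muscle paralog of RPL3 (ENSG00000140986.8, chr16:1943974-1957606, minus strand). It ran from 1944738 to 1944840 (103 nt) in the last of 10 exons, with 99 nt in the 3′ UTR, and covered the stop codon. RPL3L was not on the list of 78 cytosolic ribosomal proteins that are standard parts of the ribosome, of which 5 had a peak.

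A peak overlapped a snoRNA gene in 1 member, RPLP2, which encodes a protein of the ribosomal stalk (ENSG00000177600.9, chr11:809965-812880, plus strand). The peak at 811765 to 811864 (100 nt) lay in intron 3 (889 nt), 119 nt after the 5′ splice site. SNORA52, an H/ACA box snoRNA that spans 811681 to 811814 (134 nt), was overlapped from its base 85 to its end. In the printed sequence, 50 bases belong to the snoRNA gene and the 50 that follow belong to the intron. The ACA trinucleotide that stands 3 bases before the end of an H/ACA snoRNA is thus inside the peak. The list does not tell whether reads came from the snoRNA, the intron or a retained-intron transcript, 1 of 8 annotated, whose exon holds 75 nt of the peak.

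Other snoRNA hosts gave no such overlap. Ribosomal protein genes hosted 60 of the members' 77 snoRNA genes, in 28 of 89 genes, and factor genes hosted 17, in 8 of 69 genes. Of the 28 ribosomal protein hosts, 3 held a peak (RPL32, RPL4 and RPLP2), and of the 61 that host none, 3 also did. Among the factor hosts 2 of 8 held a peak (EEF2 and EIF4G2). Of all protein-coding host genes 18.4% held a peak. The nearest hosted snoRNA gene was SNORD37 for EEF2, 250 nt from its upstream peak, SNORD18A for RPL4 (450 nt), SNORA7A for RPL32 (2701 nt) and SNORD97 for EIF4G2 (4262 nt). RPL4 hosts 5 snoRNA genes, none in the intron with the peak. The share of peaks on a snoRNA gene was 1 of 6 for ribosomal proteins (16.7%, 3.01 to 56.4%) and 0 of 9 for factors, which allows up to 29.9%, beside 0.209% of all 1910 peaks. Only host genes can give such an overlap, and 36 of 158 members were hosts, beside 261 of all 19383 protein-coding genes. The classes differed by 16.7 points (-16.2 to 56.4), and Fisher's exact test gave p = 0.4 (adjusted p = 0.533).

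**Figure D2:**
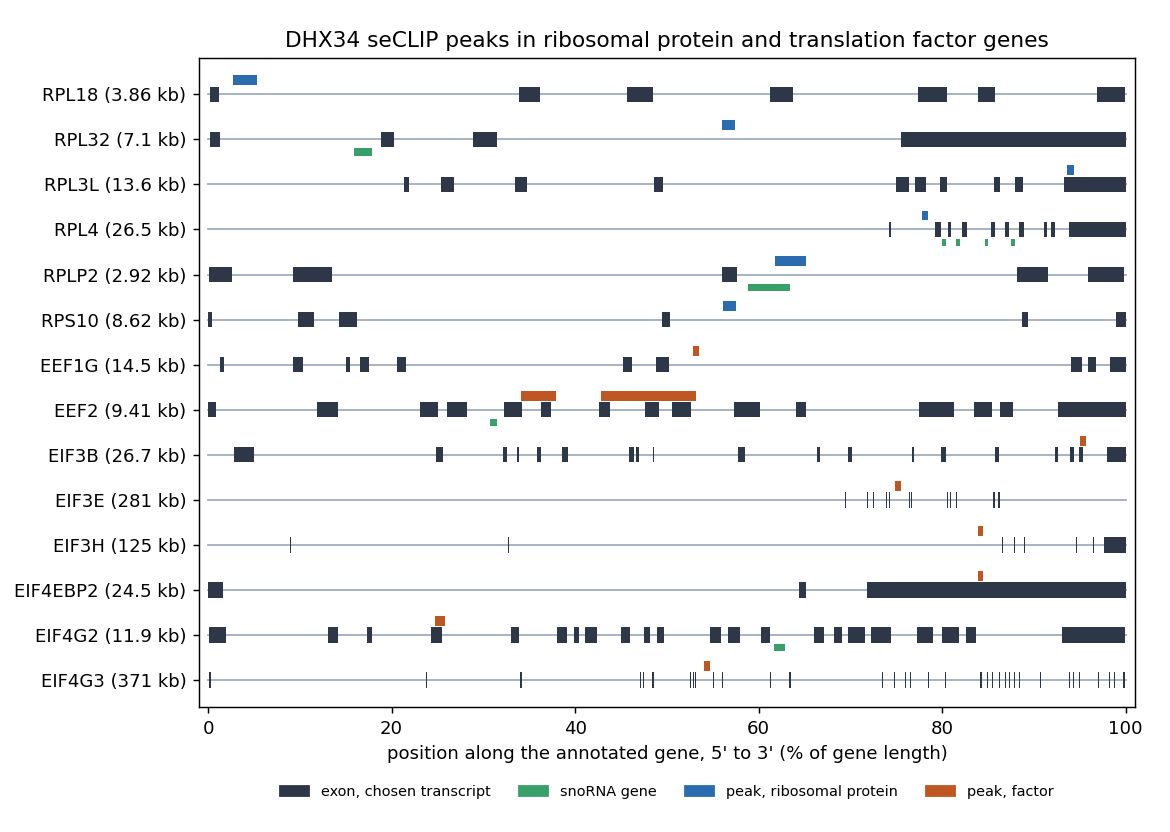
Maps of the 14 genes with a peak, drawn 5′ to 3′ with position as percent of the annotated gene on the horizontal axis; dark boxes are exons of the chosen transcript, green boxes hosted snoRNA genes, and blue or orange boxes the peaks of ribosomal protein or factor genes (very short features are widened to stay visible). The RPLP2 peak is the only one above a snoRNA gene, and the 2 EEF2 peaks run over several exons.

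The factor genes held all 4 peaks that crossed a boundary, in EEF2, EIF3B and EIF4G2. EEF2, which encodes the factor that moves the ribosome along the mRNA (ENSG00000167658.16, chr19:3976056-3985463, minus strand, 15 exons in 9.41 kb), had 2 wide peaks. The upstream one, 3981895 to 3982256, was 362 nt wide, with 117 nt in exons 5 and 6 and 245 nt in introns 5 and 6. It began 11 nt before the end of exon 5 and crossed 2 5′ splice sites and 1 3′ splice site. The downstream one, 3980466 to 3981431, was 966 nt wide, the widest of the 15. It held 428 nt of exons 7 to 9 and 538 nt of introns 7 to 9, and crossed 3 5′ and 2 3′ splice sites. A gap of 463 nt lay between them, so that 1328 of 1791 nt were covered. Introns 5, 7 and 8, of 193, 359 and 131 nt, lay whole inside a peak.

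EIF4G2, a relative of the scaffold protein eIF4G that lacks its eIF4E-binding part (ENSG00000110321.19, chr11:10797050-10808940, minus strand), had 1 peak of 131 nt at 10805871 to 10806001. It covered the last 95 nt of exon 4 and the first 36 nt of intron 4 (891 nt), the bases in capitals and in lower case above. EIF3B, which encodes a core scaffold subunit of the eIF3 complex (ENSG00000106263.19, chr7:2354086-2380745, plus strand), had a peak of 143 nt at 2379424 to 2379566. It covered 88 nt of exon 18 of 19 and 55 nt of intron 18 (692 nt), and that 5′ splice site lies 14 nt after the stop codon, in the 3′ UTR.

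All 4 boundary peaks ended in an intron a short way past a 5′ splice site. The last 5′ splice site was followed by 36 nt of intron in EIF4G2, 52 and 48 nt in the upstream and downstream EEF2 peaks, and 55 nt in EIF3B. The median of the 4, 50 nt, stood beside 47 nt over 229 peaks in protein-coding genes that ended in this way (quartiles 35 and 63). Reads had been extended to a fixed length for peak calling, and the part of this step in these lengths was not tested.

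Across the 7 5′ splice sites under these peaks, the exon ended in G in 7, beside 81.1% of the 259 sites crossed by all peaks in protein-coding genes and 81% of all annotated sites of such genes. The intron began with GTAAG or GTGAG in 5 of 7 (71.4%), beside 51.7% of the crossed sites and 62.2% of the 1100 sites of the members. Among the exceptions was the EEF2 site of exon 7, where the intron began with GTGCGG. Of the 4 peaks, EIF3B's crossed a 5′ site alone in every transcript, the EEF2 peaks crossed both kinds, and EIF4G2's crossed a 5′ site alone in the chosen transcript and also an alternative 3′ site in another. Over all protein-coding genes 214 boundary peaks crossed 5′ sites alone, 54 crossed 3′ sites alone and 47 crossed both.

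**Figure D3:**
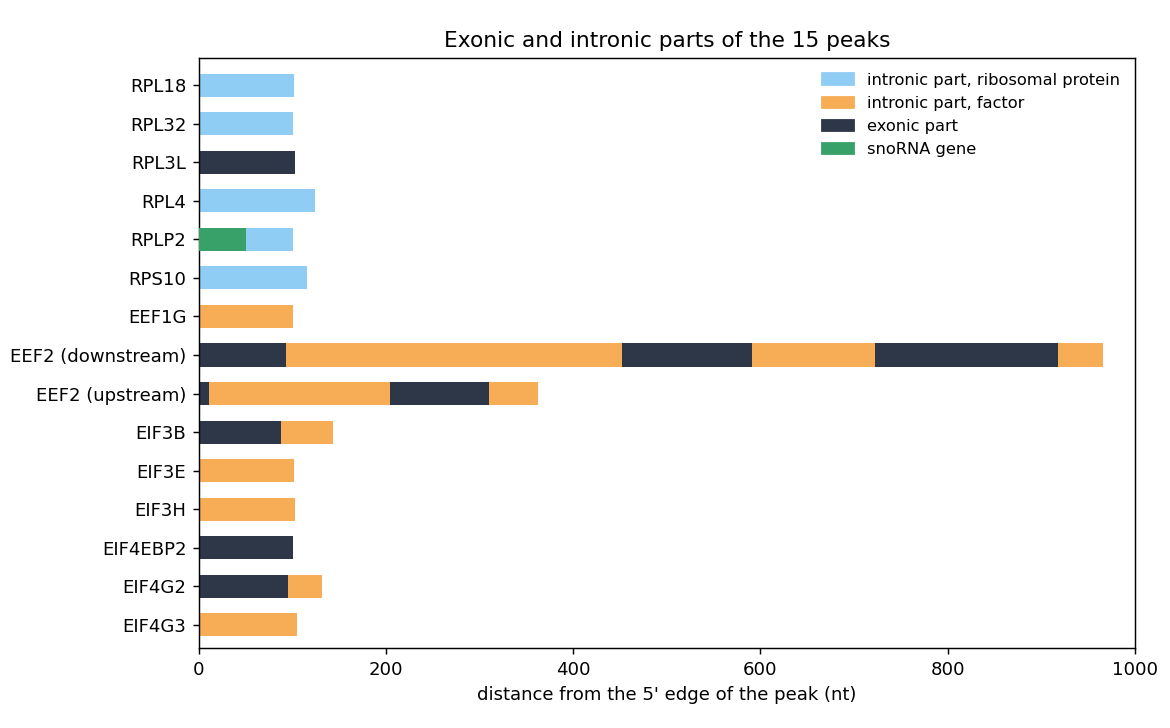
The 15 peaks drawn from their 5′ edge (horizontal axis, nt), split into exonic parts of the chosen transcript (dark), intronic parts (blue for ribosomal protein genes, orange for factor genes) and the SNORA52 gene (green). The 4 peaks with both exonic and intronic parts are 131 to 966 nt wide, and the other 11 are 100 to 124 nt wide.

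The other 5 factor peaks touched no boundary. EIF4EBP2, an inhibitor that binds the cap-binding factor eIF4E (ENSG00000148730.7, chr10:70404145-70428618, plus strand), had a peak of 101 nt at 70424674 to 70424774, all of it in the 3′ UTR. EEF1G, a subunit of the complex that recharges the tRNA-delivering factor (ENSG00000254772.10, chr11:62559596-62574086, minus strand), had 101 nt at 62566333 to 62566433 in intron 7 (6351 nt), 372 nt after the 5′ splice site. Another protein-coding gene of the minus strand, ENSG00000255508, also contains that peak.

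The 3 remaining peaks lay in long genes. EIF4G3, an eIF4G scaffold (ENSG00000075151.24, chr1:20806292-21177285, minus strand), had 105 nt at 20976524 to 20976628 in intron 10 (7234 nt), 3705 nt from one splice site and 3424 nt from the other. EIF3H, a subunit of eIF3 (ENSG00000147677.12, chr8:116642130-116766925, minus strand), had 103 nt at 116662127 to 116662229 in intron 2 (67035 nt). EIF3E, another subunit (ENSG00000104408.11, chr8:108162787-108443496, minus strand), had 102 nt at 108233254 to 108233355 in intron 5 (5802 nt) of the chosen transcript. In 3 of its 57 transcripts that stretch is part of a last exon, outside the coding part. Among the eIF3 subunit genes kept here, peaks were thus found at a boundary in EIF3B and, in the chosen transcript, within introns in EIF3E and EIF3H. EIF3A, the eIF3 subunit gene left out by the rule, had 5 peaks, all of which crossed a boundary.

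With exons of any transcript counted, 9 of the 15 peaks touched an exon (60%, 35.7 to 80.2%), beside 30.7% of all 1910 peaks. They were 3 of 6 in ribosomal protein genes (50%, 18.8 to 81.2%) and 6 of 9 in factor genes (66.7%, 35.4 to 87.9%), and the difference of -16.7 points (-54.5 to 27.5) was not separated from 0 (Fisher's exact p = 0.622, adjusted p = 0.622). In the chosen transcript the counts were 1 of 6 (16.7%) and 5 of 9 (55.6%), together 6 of 15 (40%), beside 25.1%. RPL18, RPLP2 and EIF3E are exonic only in other transcripts. Member genes were also shorter than all protein-coding genes (median 10.7 beside 26.9 kb), and the part of gene length in these shares was not tested. A boundary was crossed by 0 of 6 peaks in ribosomal protein genes, which allows up to 39%, and by 4 of 9 in factor genes (44.4%, 18.9 to 73.3%). Together these were 26.7% (10.9 to 52%), beside 16.5% of all peaks, and the count was the same in the chosen transcript, beside 15.2%. The difference between the classes, -44.4 points (-73.3 to 2.22), did not pass Fisher's exact test (p = 0.103, adjusted p = 0.413). It rests on few genes. Without EEF2 the counts were 0 of 6 and 2 of 7 (exact p = 0.462), and with the 5 peaks of EIF3A added they were 0 of 6 and 9 of 14 (exact p = 0.0141, not adjusted). With EIF3A added and 1 peak per gene they were again 0 of 6 and 4 of 9 (exact p = 0.103). Peaks of 1 gene share their RNA and are not independent.

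**Figure D4:**
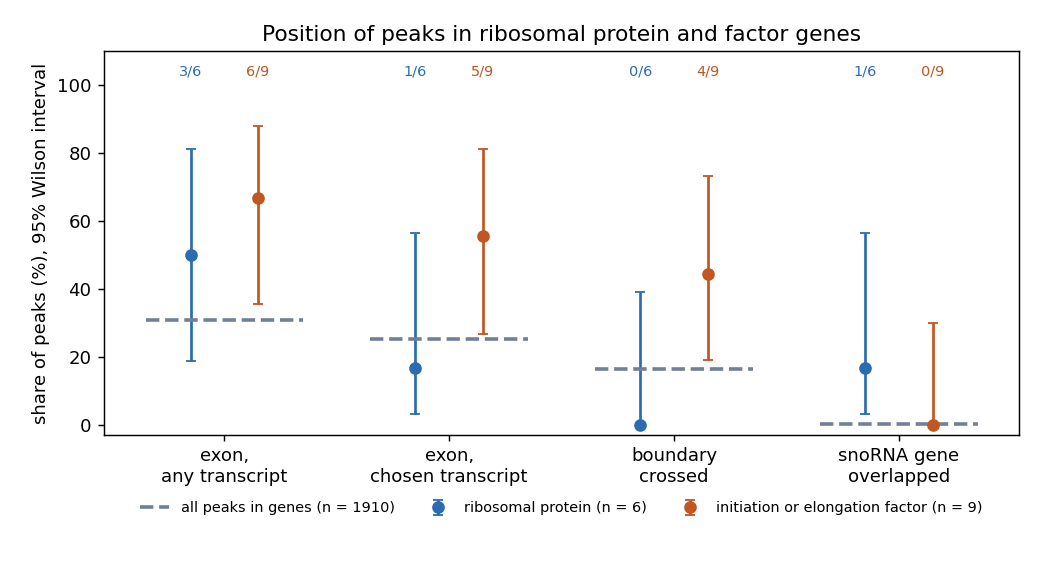
Share of peaks (%, vertical axis) that touch an exon, cross a boundary or overlap a snoRNA gene, for ribosomal protein genes (blue, 6 peaks) and factor genes (orange, 9 peaks), with 95% Wilson intervals as bars and counts above; dashed gray lines give all 1910 peaks in protein-coding genes. The intervals of the classes overlap in every pair, and the widest gap is in boundary crossing, 0 of 6 beside 4 of 9.

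Peak width moved with position. The 4 boundary peaks measured 131 to 966 nt (median 252.5) and the 11 others 100 to 124 nt (median 102), with no overlap between them. Over all protein-coding genes the medians were 111 nt for 315 boundary peaks and 103 nt for the other 1595. There the ranges overlapped, 100 to 1057 nt and 100 to 581 nt. Reads had been extended to 100 nt for peak calling, and the part of this step in the widths was not tested. The part of width in the crossing counts was not tested.

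Many ribosomal protein genes have processed copies elsewhere in the genome, and only uniquely placed reads were kept. Of the 30-base words of the exons, the median ribosomal protein gene had 53.4% that occur once in GRCh38, with 44 of 89 genes under 50%, and the median factor gene had 94%, with 13 of 69 under 50%. Pooled over all genes of a class, the exon shares were 64.8% for ribosomal proteins and 81.8% for factors. The pooled intron shares were 87.3% and 82.1%. Among the 9 genes whose peak was intronic in the chosen transcript, 3.62% of exon words were unique in RPS10, 18.5% in EEF1G and 60.3% (RPL4) to 99% (EIF4G3) in the other 7. EIF3C and EIF3CL, which had no peak, had 0.652 and 0.781% of exon words unique, and 1.53 and 1.69% of intron words. Of the 15 peaks themselves, 14 had only unique words and RPS10's had 92%. The part of read placement in the exonic and intronic counts was not tested.

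Base composition of the peaks was also described. Their GC content ranged from 30.1 to 69.6% with a median of 46.6%, 53.8% for ribosomal proteins and 44.6% for factors, beside 50.5% over all 1910 peaks. At positions 6 to 15 from the 5′ edge, 57 of 150 bases were G (38%), against 24.7% at the same positions from the 3′ edge. The 5′ window held more G than the 3′ window in 11 peaks, fewer in 3 and as many in 1. These positions were chosen with earlier results of these data known, and no such count per peak is given for all 1910 peaks. Over all 1910 peaks the shares were 37.6% and 25.3%, so that the members stood near the rest. A G-rich and a G-poor window are shown here with these positions in capitals, on the minus strand, from RPL4 with 6 G of 10 (peak chr15:66503765-66503888) and from RPL32 with 1 (peak chr3:12837510-12837610).
RPL4 5′ edge: tgagtGGGACAGGGAtggaagttgggatga
RPL32 5′ edge: atgctGAAAATTTCTgttagaaaagatggg
Among the 3 hexamers searched on the sense strand, GGAGGG stood in 3 of 15 peaks (20%), GGGGAG in 2 (13.3%) and GAGGAG in 2 (13.3%), and the shares over all 1910 peaks were 16.5, 15 and 15%. The first and second overlap in sequence and can share bases.

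By role, peaks were found in 5 of 78 cytosolic ribosomal proteins, 5 of 40 core initiation factors, 1 of 13 regulators of initiation (EIF4EBP2), 2 of 7 elongation factors and 0 of 7 modifiers and partners of elongation factors, beside 8.5% of all protein-coding genes. Other genes of the translation pathway were counted for comparison, and 14 of 174 had a peak (8.05%), near that background. Of the 14, 8 were among the 51 genes for ribosome biogenesis (15.7%), including NCL (nucleolin), DKC1 (the pseudouridine synthase of H/ACA snoRNPs) and GNL3 (nucleostemin). Peaks were also found in 3 of 78 mitochondrial ribosomal proteins (3.85%), in 2 of 23 cytosolic aminoacyl-tRNA synthetases, FARSB and SARS1, in 1 of 16 poly(A)-binding and initiation partners, PAIP1, and in 0 of 6 termination and recycling factors. Of the 17 peaks in these genes 11 touched an exon (64.7%, beside 30.7% of all 1910 peaks) and 4 crossed a boundary (23.5%, beside 16.5%), in GNL3, NCL, RRP1B and SARS1, and 0 overlapped a snoRNA gene. These counts were not tested.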

How the data were processed

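seCLIP libraries of HEK293T cells (5 IP, 4 no-tag control) were grouped by their labels. Per the methods, the authors trimmed reads with cutadapt, aligned them to GRCh38 with bowtie2, removed duplicates with UMI-tools, kept uniquely placed reads, discarded reads in transposable elements and called peaks with macs2 against the merged controls, with reads extended to a fixed length; the submitters' processing notes name the same tools, and versions are not given in the sources used here. Since bowtie2 makes no spliced alignments, few reads over exon-exon junctions can remain. The deposited list has 4 columns, and the fourth was treated as a score of unstated meaning, used only as a description.

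Positions were compared with GENCODE release 44 and counted from 1. Overlap meant 1 nt or more, and crossing meant at least 1 nt on each side of a boundary of any transcript. Hosted snoRNA genes were snoRNA or scaRNA genes on the strand of the host. The classes were compared by two-sided Fisher's exact tests with Benjamini-Hochberg adjustment. Shares have 95% Wilson intervals and differences have Newcombe intervals. Every member gene with a peak was named. The sequence of 1 splice site is not reported here. Members and lists were chosen with earlier results of these data known, among them the positions 6 to 15 and the hexamers. The classification was tested on simulated peaks. Alternatives were the transcripts, the part of the peak, the member list, EIF3A, the overlap rule, the opposite strand, 1 peak per gene and the distance to a snoRNA gene. Python 3.11.15, scipy 1.17.1, statsmodels 0.14.6 and pysam 0.24.0 were used.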

Additional observations from a re-analysis of the deposited data

How the results depend on the processing

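Of 71 alternative values, 70 kept their direction and their side of the threshold or moved within their interval. The exception was the difference in boundary crossing between ribosomal protein and factor genes, which was -64.3 percentage points with EIF3A added (0 of 6 against 9 of 14 peaks, Fisher's exact p = 0.0141) and -44.4 points without it (exact p = 0.103). EIF3A adds 5 boundary peaks of 1 gene, and with EIF3A added and 1 peak per gene the exact p was 0.103. With 1 peak per gene and EIF3A left out, the counts were 0 of 6 and 3 of 8 (Fisher's exact p = 0.209). Over the 32 differences tested under alternatives, exact p ranged from 0.0141 to 1, and 1 was under 0.05. The boundary-crossing share was 45% with EIF3A, 21.4% with 1 peak per gene and EIF3A left out, 20% for the central 50 nt and 15.4% without EEF2. The intervals are wide, so few changes could leave them. A fall of the exonic share from 60 to 40% in the chosen transcript stayed inside its interval, and some alternatives changed no count. Leaving out EEF2, leaving out EIF3E and EIF3H, and joining EIF3A with 1 peak per gene were chosen after seeing the data. Peaks that crossed 1 kind of splice site only were too few for a share: 1 of 1 crossed a 5′ site, 2 of 2 in the chosen transcript, and 1 of 3 for the central 50 nt. No paired analysis was possible because the list holds no value per library, and for the same reason no library could be left out. Depth behind each peak is unknown, and the classes hold only 6 and 9 peaks.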
